A study of Mus musculus with 3 samples.

Results

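The genes described here were 10 AP-1 and immediate early genes. They were the Fos family (Fos, Fosb, Fosl1 and Fosl2), the Jun family (Jun, Junb and Jund), and Egr1, Ier2 and Ier3. They were found on the arrays by symbol, through the RefSeq symbol of each probe's accession or the gene name in the scanner file. All 10 genes were present, on 11 of the 55681 gene probes of the array and 20 of its 59305 gene spots. Fosl2 had 2 probes, the Fos probe was printed 10 times, and every other gene had 1 probe in 1 spot.

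Expression was measured on 3 Agilent 1-colour arrays, each hybridized with Cy3-labelled RNA from mouse embryonic fibroblasts (MEF). These primary cells came from the trunk tissue of C57BL/6 embryos and were not a cell line. n-Butylidenephthalide (BP) is a phthalide from the roots of Angelica sinensis. One array held MEF whose treatment the labels give as none, while the study's text calls the array control DMSO, the solvent of BP, one held MEF cultured with 10 µg/ml BP, and one held MEF cultured with 40 µg/ml BP. The time in BP before RNA extraction is not given in the sources used here. Each condition had a single array, so none of the values has a replicate check and no p-value or SD between cultures is given. The control was scanned in a session of its own and both BP arrays in another, and the effects of BP and of the session cannot be told apart where a dose is set against control. The comparison between the doses is free of that difference.

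AP-1 is a dimeric transcription factor made of a Jun protein bound to a Fos, Jun or ATF partner through a leucine zipper. Fos, Fosb, Jun, Junb, Egr1 and the Ier genes belong to the immediate early class, whose transcription starts within minutes of a growth factor, serum or stress signal without new protein synthesis, and whose mRNAs are mostly short-lived. In fibroblasts this class is known from the serum response, in which MAP kinases, ternary complex factors and SRF switch on the Fos and Egr1 genes and AP-1 then drives genes for matrix proteases and cell cycle entry.

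The probe that carried the only member call, and the probe with the highest ratio among the members, are shown as the array files give them, 5′ to 3′ on the sense strand. The Fosl2 probe below lies in the coding part of the transcript at chr5:32455088-32455147 of mm9 on the plus strand, with 1 reading frame free of stop codons. Its capitals mark the 2 leucine codons in that frame. The Junb probe lies in the single exon of Junb at chr8:87501881-87501940 of mm9 on the minus strand and has no capitals.
Fosl2, coding probe: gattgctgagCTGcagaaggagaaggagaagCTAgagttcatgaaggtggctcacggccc
Junb probe: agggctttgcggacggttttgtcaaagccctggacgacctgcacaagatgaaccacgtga

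RefSeq promoters of GRCm38.p6 were available for 7 of the members, Fos, Fosb, Fosl2, Jun, Junb, Jund and Ier3, and the 250 bases before each gene start were searched on both strands. The half-site TGACG, part of the CRE to which CREB and ATF factors bind, was present in Fos, Fosb and Junb, which is 3 of 7 members against 17.8% of 32851 promoters. In Jun the letters TGACATCA, a variant of the AP-1 site through which Jun is known to act on its own gene, stood 45 bases before the gene start and were present in 2.93% of all promoters. Both the half-site and the Jun variant were chosen after these promoters had been seen. The windows around these matches are shown, with the match in capitals, to set side by side the half-site found in 3 of the members and the variant found in Jun.
Fos (chr12:85473797-85473856, plus strand): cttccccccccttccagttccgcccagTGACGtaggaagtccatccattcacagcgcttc
Fosb (chr7:19310073-19310132, minus strand): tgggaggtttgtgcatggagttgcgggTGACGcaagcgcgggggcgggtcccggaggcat
Junb (chr8:84978822-84978881, minus strand): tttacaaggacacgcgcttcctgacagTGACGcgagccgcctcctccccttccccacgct
Jun (chr4:95052234-95052293, minus strand): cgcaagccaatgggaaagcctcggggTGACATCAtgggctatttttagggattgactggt

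No match to TGANTCA, to the full CRE TGACGTCA or to the CArG box bound by SRF was found in these 7 windows. Of all promoters, 6.75%, 1.55% and 1.47% held them. Bases farther before the gene start were not searched, and Egr1 was not among the 7 members. The search therefore cannot tell whether Fos or Egr1 has a CArG box or an AP-1 site outside these windows. The NF-kB motif was matched in Fos, Fosb, Fosl2 and Ier3, which is 4 of 7 members against 7.25% of all promoters. These matches are letters in a window and no measure of binding was made.

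Levels are given first as processed signal, the background-subtracted intensity in scanner units, and then as a log2 ratio after each array's 75th percentile had been subtracted. The 75th percentile of the signal was 1765 on the control array, 1431 at 10 µg/ml BP and 1237 at 40 µg/ml BP, so an equal signal on a BP array is a higher normalized level. All 11 member probes were well above background on all 3 arrays. A probe was called when its level differed by 2-fold or more, a log2 ratio of at least 1 in size. The ± value after a member's log2 ratio is the error that the scanner software gives for the spot signals, which covers neither labelling nor culture. It lay between 0.20 and 0.26 for every member probe, so a ratio beyond it does not show a difference between cultures. Probes printed 10 times varied over their spots by a median SD of 0.13 in log2 signal in control and 0.07 in each BP array. Where a gene had 2 probes, their log2 ratios differed by a median SD of 0.30 for 10 µg/ml BP against control, 0.23 for 40 µg/ml BP against control and 0.21 between the doses.

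At 10 µg/ml BP, 0 of the 11 member probes were called, against 12.9% of all gene probes. Their log2 ratios to control ran from -0.72 for the coding probe of Fosl2 to 0.93 for Junb, with 6 above 0 and 5 below. At 40 µg/ml BP, 1 of the 11 was called, the coding probe of Fosl2, which was lower, and 12.9% of all gene probes were called. A share of 1 in 11 is near that background, which covers probes of any brightness. Between the doses 0 of 11 were called, against 4.08% of all gene probes. At both doses the members were within 2-fold of control, but for the coding probe of Fosl2. Call shares moved with brightness. Of probes with a mean normalized level of 0 or above, 2.27% were called at 10 µg/ml BP, 1.63% at 40 µg/ml BP and 1.72% between the doses. Of probes at -4 to 0, where the coding probe of Fosl2 lay, these shares were 18.8%, 16.7% and 5.05%.

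Most members stood slightly above control at 40 µg/ml BP. At that dose 9 of 11 member probes had a ratio above 0, with a median of 0.28, while 40.8% of all probes were above 0 and their median was -0.15. At 10 µg/ml BP the median of the members was 0.15 and that of all probes -0.24. All probes include many dim ones, and ratios moved with brightness. Of the 6 member probes brighter than the 75th percentile, 5 were above 0 at 40 µg/ml BP, where 56.7% of all probes that bright were, and 3 at 10 µg/ml BP, where 39.1% were. The median over probes that bright was 0.06 at 40 µg/ml BP and -0.10 at 10 µg/ml BP.

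**Figure D1:**
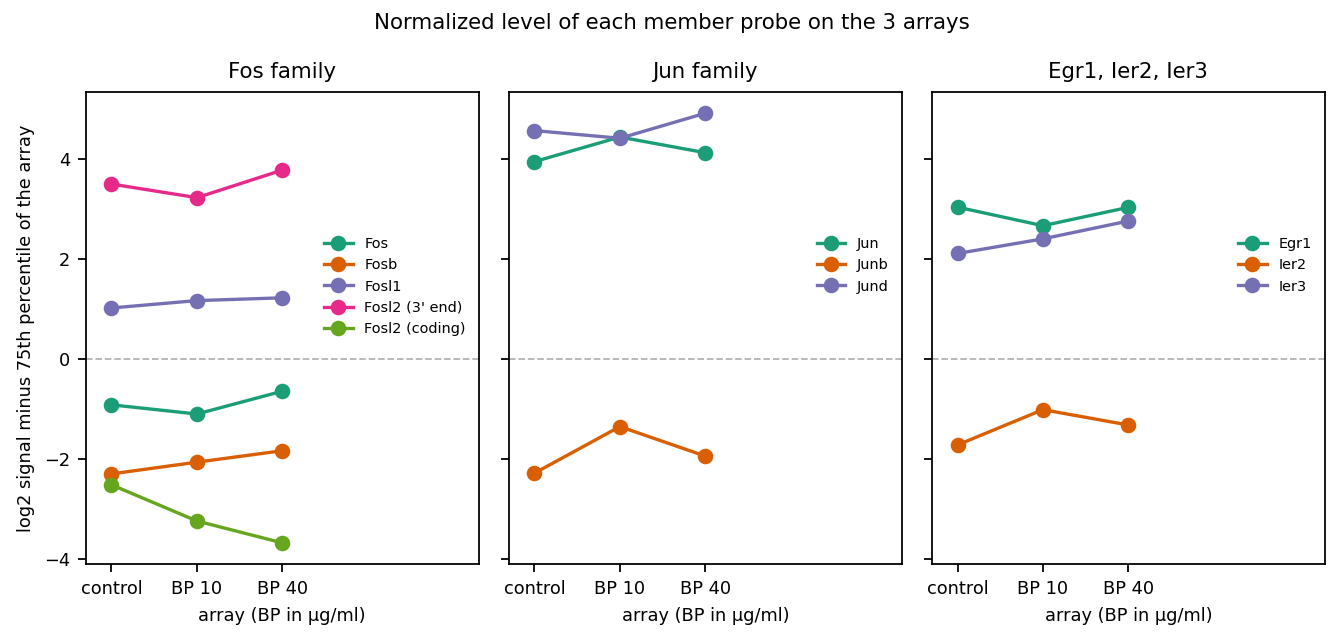
Normalized level of each member probe (log2 signal minus the array's 75th percentile, vertical axis) on the control, 10 µg/ml BP and 40 µg/ml BP arrays (horizontal axis), with 1 line per probe and 1 array per point. Junb, Ier2 and Jun peak at 10 µg/ml BP, the coding probe of Fosl2 falls from the control through both doses, and levels of different probes cannot be set against each other.

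Fos encodes c-Fos, the founding Fos protein, which cannot pair with itself and binds DNA with a Jun partner. Its probe gave a mean signal of 937 on the control array, 669 at 10 µg/ml BP and 793 at 40 µg/ml BP. Single spots ran from 838 to 1024, from 641 to 695 and from 734 to 843, with 1 of the 10 spots left out at 10 µg/ml BP because the scanner software marked it as an outlier. These signals are not scaled between arrays, and those at 10 µg/ml BP lay below all spots of both other arrays. After normalization the spots at 10 µg/ml BP ran from -1.159 to -1.042. They overlapped those of control, which ran from -1.075 to -0.786.

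After normalization Fos was at -0.18 ± 0.21 at 10 µg/ml BP and at 0.27 ± 0.20 at 40 µg/ml BP against control. It differed by 0.46 ± 0.21 between the doses, a 1.37-fold higher level at the higher dose. When spots at the same place on the arrays were paired, 9 of 9 were below control at 10 µg/ml BP, with a mean log2 ratio of -0.20 and an SD of 0.12. At 40 µg/ml BP 10 of 10 were above control (mean 0.27, SD 0.13), and 9 of 9 were higher than at 10 µg/ml BP (mean 0.45, SD 0.09). The spots are repeats on 1 array and share its RNA and labelling. The ratios at 40 µg/ml BP, to control and to the lower dose, exceeded the scanner error and were smaller than 1.5-fold. The step from control to 10 µg/ml BP did not exceed the scanner error, so the order of these levels could not be read. That error is a mean over single spots, near 10.0% of the signal on each array, and was not reduced for the number of spots.

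**Figure D2:**
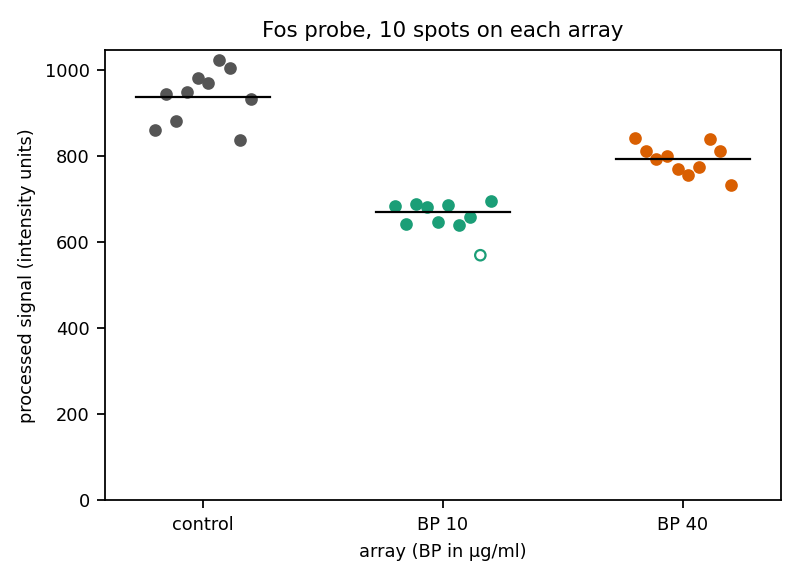
Processed signal (vertical axis, intensity units, not scaled between arrays) of each of the 10 spots of the Fos probe on the 3 arrays (horizontal axis), with lines at the mean of the log2 signals and an open circle for the outlier spot. Spots kept at 10 µg/ml BP lie from 641 to 695, and the outlier spot lies at 570. On this unscaled axis the spots at 10 µg/ml BP do not overlap those of the other arrays.

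Fosb encodes a Fos protein with a transactivation domain, also made as the shorter delta-FosB. Its signal was 360 in control, 344 at 10 µg/ml BP and 348 at 40 µg/ml BP. The log2 ratio to control was 0.23 ± 0.21 at 10 µg/ml BP and 0.46 ± 0.21 at 40 µg/ml BP, so the measured order was 40 µg/ml, 10 µg/ml, control. Each step in it was barely larger than the scanner error.

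Fosl1 encodes Fra-1, a Fos protein that lacks the transactivation domain of c-Fos and is kept up by lasting ERK signalling. Its signal was 3585 in control, 3219 at 10 µg/ml BP and 2892 at 40 µg/ml BP. The log2 ratios were 0.15 ± 0.20 and 0.20 ± 0.20 to control and 0.06 ± 0.20 between the doses. None of the 3 exceeded its scanner error, so no order of its levels could be read.

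Fosl2 encodes Fra-2, the second Fos protein of that kind. Its probes did not give the same answer. The probe at position 5726 of the transcript, near the 3′ end (chr5:32460076-32460135 of mm9), had signals of 19950 in control, 13393 at 10 µg/ml BP and 16957 at 40 µg/ml BP. Its log2 ratio to control was -0.27 ± 0.20 at 10 µg/ml BP and 0.28 ± 0.20 at 40 µg/ml BP, with 0.55 ± 0.20 between the doses.

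The coding probe of Fosl2, at position 738, was dim, with signals of 310 in control, 152 at 10 µg/ml BP and 97.1 at 40 µg/ml BP. It stood at -0.72 ± 0.23 at 10 µg/ml BP and at -1.16 ± 0.24 at 40 µg/ml BP, a 2.23-fold lower level. The probes were 0.45 apart in log2 ratio at 10 µg/ml BP and 1.44 apart at 40 µg/ml BP. Among 4945 genes with 2 probes above background on both arrays, 6.27% had probes at least as far apart at 40 µg/ml BP. At 10 µg/ml BP 47.5% of 4869 such genes did, so the gap there was ordinary. The 3′ probe had 35% G and C bases and the coding probe 55%, and the part of these differences in the result was not tested. With both probes averaged, Fosl2 was at -0.44 at 40 µg/ml BP. The call therefore holds for 1 probe and not for the gene. For the same probe it was lost under 3 other ways of treating signal: the log2 ratio was -0.73 with normexp background correction, -0.84 with quantile normalization and -0.79 after the median ratio of equally bright probes had been subtracted.

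Jun encodes c-Jun, the AP-1 subunit that JNK activates. Its signal was 27218 in control, 31018 at 10 µg/ml BP and 21572 at 40 µg/ml BP. It was above control by a log2 ratio of 0.49 ± 0.20 at 10 µg/ml BP, a 1.41-fold higher level, and by 0.18 ± 0.20 at 40 µg/ml BP, which did not exceed the scanner error. Between the doses the ratio was -0.31 ± 0.20, so Jun was lower at 40 µg/ml BP.

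Junb encodes a Jun protein that restrains cell cycle entry and is itself a serum-induced gene. It gave signals of 364 in control, 562 at 10 µg/ml BP and 323 at 40 µg/ml BP. Its log2 ratio to control was 0.93 ± 0.21 at 10 µg/ml BP, a 1.90-fold higher level and the largest rise among the members, just short of the 2-fold line. Of gene probes well above background on every array, 15.4% had a ratio at least that large in either direction. At 40 µg/ml BP it was at 0.34 ± 0.21, and its ratio to the lower dose was -0.59 ± 0.21. Over the alternatives its ratio at 10 µg/ml BP ran from 0.90 to 1.12, and it passed 2-fold with quantile normalization and with the brightness median subtracted. The local background around the Junb spot on the control array was marked as uneven or as an outlier by the scanner software, and its part in the ratio was not tested. Such marks were also on 1, 1 and 2 spots of Fos on the control, 10 µg/ml BP and 40 µg/ml BP arrays.

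Jund encodes the Jun protein that is abundant in resting cells and responds least to serum. Its signal was 41814 in control, 30500 at 10 µg/ml BP and 37283 at 40 µg/ml BP. The log2 ratio was -0.15 ± 0.20 at 10 µg/ml BP and 0.35 ± 0.20 at 40 µg/ml BP, with 0.50 ± 0.20 between the doses. Jun and Junb thus had their highest measured level at 10 µg/ml BP, and Jund, like Fos and the 3′ probe of Fosl2, at 40 µg/ml BP. The ratio of Jund at 10 µg/ml BP did not exceed the scanner error.

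Egr1 encodes a zinc finger factor that SRF and its cofactors switch on within minutes of serum. Its signal was 14485 in control, 9083 at 10 µg/ml BP and 10122 at 40 µg/ml BP. It was below control at 10 µg/ml BP, at a log2 ratio of -0.37 ± 0.20, and at 40 µg/ml BP its ratio was -0.00 ± 0.20. Between the doses the ratio was 0.37 ± 0.20. Egr1 was the only member other than Fosl2, Fos and Jund with a ratio below 0 at 10 µg/ml BP.

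Ier2 encodes a short-lived nuclear protein of the serum response. It had signals of 538 in control, 711 at 10 µg/ml BP and 497 at 40 µg/ml BP. Its log2 ratio to control was 0.70 ± 0.21 at 10 µg/ml BP, a 1.63-fold higher level, and 0.40 ± 0.21 at 40 µg/ml BP, with -0.31 ± 0.21 between the doses. Like Jun and Junb, Ier2 was highest at 10 µg/ml BP.

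Ier3, known as IEX-1, is a stress and NF-kB responsive gene whose protein bears on survival and ERK signalling. Its signal was 7626 in control, 7570 at 10 µg/ml BP and 8377 at 40 µg/ml BP. The log2 ratio was 0.29 ± 0.20 at 10 µg/ml BP and 0.65 ± 0.20 at 40 µg/ml BP, a 1.57-fold higher level. This was the largest rise among the members at that dose, except with quantile normalization, where Fosb was at 0.71 and Ier3 at 0.59, and with the brightness median subtracted, where they were at 0.66 and 0.59. Of gene probes well above background on all 3 arrays, 25.3% had a ratio at least that large in either direction.

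**Figure D3:**
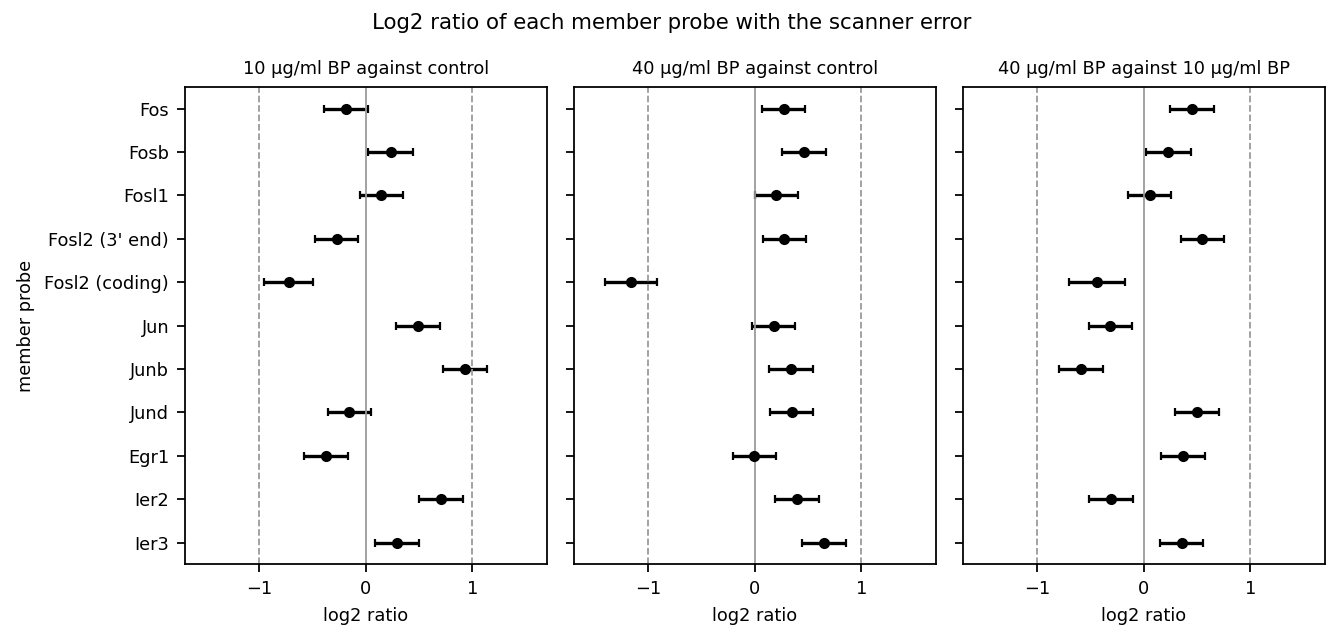
Log2 ratio (horizontal axis) of each of the 11 member probes (vertical axis) for both doses against control and between the doses, with bars for the scanner error and dashed lines at 2-fold. Only the coding probe of Fosl2 at 40 µg/ml BP lies past a dashed line, at -1.16.

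The genes around AP-1 were described by 5 lists with 102 genes, using 1 probe per gene. In all, 2 were higher and 4 lower at 10 µg/ml BP, which is 5.88% of the genes against 13.3% of all genes on the array, of which 2.76% were higher and 10.5% lower. At 40 µg/ml BP 1 was higher and 6 were lower, 6.86% against 13.2% of all genes (2.71% higher, 10.5% lower). Between the doses 2 were higher and 3 lower, 4.90% against 3.96% (1.89% higher, 2.07% lower). Call shares depended on brightness, and neither these genes nor the single lists below were matched to all genes for it. The shares are therefore not read as fewer or more calls than at equal brightness. The split over all genes depended on the scaling. At 10 µg/ml BP 79.2% of the called genes were lower, 49.6% with quantile normalization and 68.6% with normexp, and at 40 µg/ml BP 79.4%, 48.4% and 55.9%. Over the 102 genes the ratios had a median of -0.08 at 10 µg/ml BP and -0.04 at 40 µg/ml BP, beside -0.24 and -0.12 over all genes.

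The kinases and SRF factors that act on the members were almost all within 2-fold. Of 19 genes on this list, 0 were called at 10 µg/ml BP and 1 at 40 µg/ml BP, and the medians were -0.08 and 0.11. The called gene was Map2k7, which encodes MKK7, a kinase that activates JNK. It was at -0.21 at 10 µg/ml BP and -1.22 at 40 µg/ml BP, while its other probe was at 0.22 and -0.10. None of the 13 other bZIP partners of AP-1, the Atf, Batf, Jdp2 and Maf genes, was called at either dose or between the doses, with medians of -0.02 at both doses.

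Of 31 other immediate early genes, 1 was called at 10 µg/ml BP and 1 at 40 µg/ml BP, both higher, and the list's medians were 0.04 and -0.08. Ier5 was at 1.21 at 10 µg/ml BP, with its other probe at -0.14. Dusp1, a phosphatase that switches off MAP kinases, was at 0.67 at 10 µg/ml BP and 1.01 at 40 µg/ml BP. The latter was past 2-fold in 2 of 6 alternatives. Those 2 include the series table, which holds the same intensities and could only repeat the ratio. Ier5, Dusp1 and Ccl2 are named here after their values had been seen, as the remaining called genes of these lists. Of 12 genes for negative feedback on ERK, only Dusp5, an ERK phosphatase of the nucleus, was called. Its signal was 89.6 in control, 207 at 10 µg/ml BP and 71.6 at 40 µg/ml BP, a log2 ratio of 1.51 at the lower dose and 0.19 at the higher.

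Among 27 genes known as AP-1 targets, 4 were lower at 10 µg/ml BP and 5 at 40 µg/ml BP, and 0 were higher at either dose. These are 14.8% and 18.5% of the list, against 10.5% of all genes called lower at each dose. The list's median was -0.27 at 10 µg/ml BP and -0.32 at 40 µg/ml BP. The matrix metalloproteinases Mmp3, Mmp10 and Mmp13, secreted proteases that degrade matrix proteins, were lower at both doses.

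Mmp10 (stromelysin 2) had signals of 748 in control, 196 at 10 µg/ml BP and 163 at 40 µg/ml BP, and was 3.10-fold and 3.22-fold lower after normalization. Mmp3 (stromelysin 1) was well above background on the control array only, with signals of 299, 52.3 and 35.3. It was at least 4.64-fold lower at 10 µg/ml BP and at least 5.94-fold lower at 40 µg/ml BP with the scaling used here, and over the alternatives its bound came as near to control as a log2 ratio of -1.34 and -1.28. Mmp13 (collagenase 3) was likewise above background in control only, with signals of 150.0, 38.0 and 26.8, and was at least 2.91-fold and at least 3.64-fold lower. With normexp the bounds of Mmp13 fell within 2-fold, at log2 ratios of -0.62 and -0.63. Mmp3 and Mmp10 passed 2-fold at both doses under all 6 scaling and background alternatives. The series table is among those 6 and could only repeat the ratios given here, because it holds the same intensities. For such a bound the dim array's level was set to the lowest signal that counted as well above background on that array, or to the signal of the probe if it was higher. Mmp1a, Mmp1b and Fasl were also above background in control only, and their bounds stayed within 2-fold.

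Between the doses 3 AP-1 targets were called at 2-fold, which is 11.1% of the list against 3.96% of all genes. Mmp9, the gelatinase B gene, had signals of 146 in control, 237 at 10 µg/ml BP and 43.0 at 40 µg/ml BP, 1.99-fold higher and 2.38-fold lower than control after normalization. The rise was just under the 2-fold line and passed it in 4 of 6 alternatives. The call at 40 µg/ml BP was kept in 3 of 6, which include the series table with its same intensities. The log2 ratio came as near to 0 as -0.36. Mt2, a metallothionein gene that also answers to metals and glucocorticoids, was at -1.25 at 10 µg/ml BP and 0.98 at 40 µg/ml BP. Il11, a cytokine gene with AP-1 sites, was at -0.11 and 0.98. Ccl2, a monocyte chemokine gene, was at -0.40 at 10 µg/ml BP and was called at 40 µg/ml BP, 2.01-fold lower. These ratios rest on 1 probe each.

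**Figure D4:**
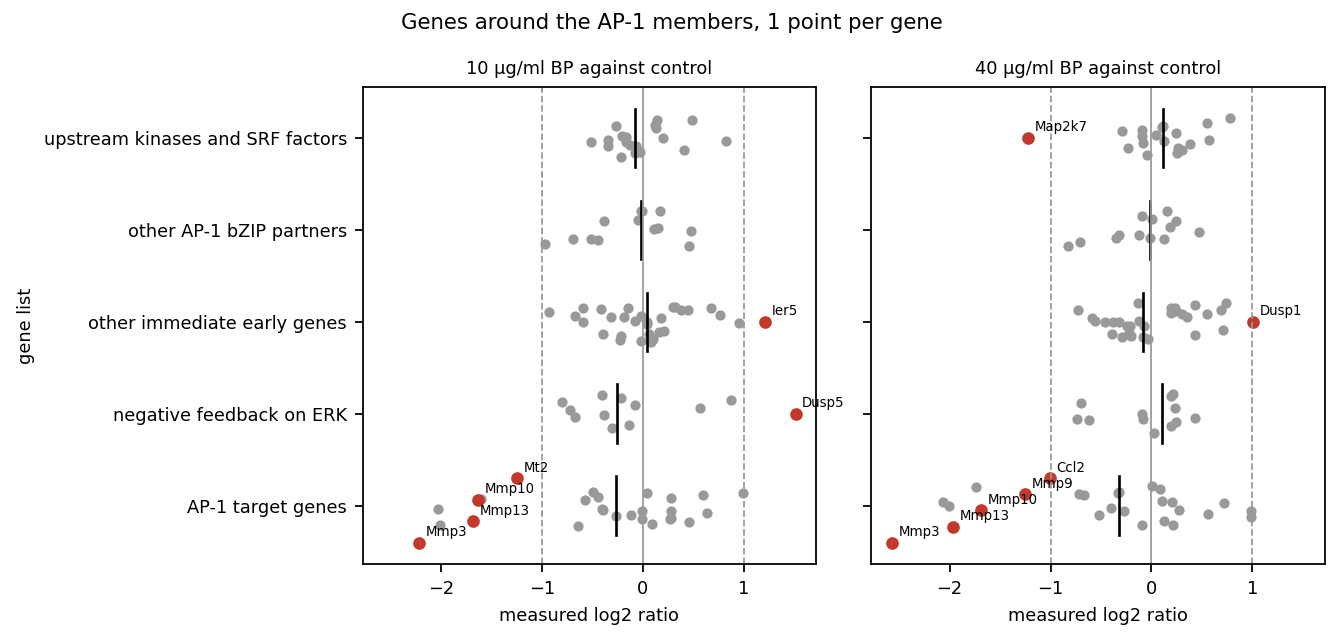
Measured log2 ratio against control (horizontal axis) of the genes of 5 lists around AP-1 (vertical axis, scattered within each list) at 10 µg/ml BP and 40 µg/ml BP, with 1 point per gene. Called genes are red and named, grey points past the dashed 2-fold lines were above background on 1 array or none and had bounds within 2-fold, and black bars are the list medians.

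The fibroblast identity of the cells and the other cells a MEF culture can hold were checked by marker lists. All 16 fibroblast markers were well above background on all 3 arrays. Their summed level, in units of each array's 75th percentile, was 1623 in control, 1174 at 10 µg/ml BP and 1252 at 40 µg/ml BP. All 16 had a ratio below 0 at 10 µg/ml BP and 13 of 16 at 40 µg/ml BP, with medians of -0.54 and -0.55. Lum, the gene of the matrix proteoglycan lumican, stood at -3.21 and -2.22, and Col3a1, a fibrillar collagen gene, at -0.76 and -1.23.

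All 8 neural markers were above background, with a summed level of 10.8 in control, 6.79 at 10 µg/ml BP and 8.61 at 40 µg/ml BP and medians of -0.62 and -0.33. Stmn2 was at -0.31 and -1.77 and Rbfox3 at -0.86 and -0.91. All 12 macrophage markers were above background on every array, with a summed level of 39.1, 32.7 and 36.4 and medians of -0.18 and 0.06. Skeletal muscle markers were above background for 11, 9 and 8 of 12 genes, with a summed level of 16.2, 16.2 and 17.3, endothelial markers for 5 of 8, with 8.45, 6.69 and 8.54, and epithelial markers for 6 of 8, with 5.93, 6.06 and 5.13. Of the epithelial markers, Cdh1 and Epcam were at background on all 3 arrays. The part of these shifts in the members' ratios was not tested, and in RNA from a whole culture fewer cells of a type and less RNA per cell cannot be told apart.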

How the data were processed

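Labelled RNA of 3 MEF cultures was hybridized, 1 array each for control, 10 µg/ml BP and 40 µg/ml BP. The intensity values deposited by the authors come from Feature Extraction 10.5.1.1, which subtracted background and removed spatial trends on every array but did not put the arrays on a common scale. A second deposited table, for the series, held the scanner intensities for 100% of spots within a relative tolerance of 0.0001, and 0 of its value columns were unmapped. Probe coordinates in the files are of mm9.

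Processed intensities were put on the log2 scale, each array's 75th percentile over gene spots was subtracted, and the spots of a probe were averaged without those marked as outliers. Of 55681 probes, 26425 took the RefSeq symbol of their accession (GRCm38.p6) and the rest the name in the scanner file. A call needed an absolute log2 ratio of 1 or more and a signal well above background on one of both arrays compared, with a bound in place of the ratio where the other array was at background. For lists, the probe above background on most arrays, then the brightest, stood for a gene. The precision is limited by having 1 array per condition, on which 81.7%, 68.3% and 69.1% of gene spots were well above background.

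From each gene list, the text names genes called the same way at both doses (at most 8) and genes called between the doses (at most 4), and from marker lists the 2 that moved most where the median passed 0.5. The members and lists were chosen with earlier results of these data known. Alternatives were a 1.5-fold and a 3-fold threshold, other filters on dim probes, quantile normalization, the 75th percentile over other sets of probes, normexp with an offset of 50, subtraction of the brightness median, the series table and other probe summaries. Python 3.11.15 with pandas 2.3.3, R 4.3.3 and limma 3.58.1 were used, and calling was checked on simulated arrays.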

Additional observations from a re-analysis of the deposited data

Results flagged for a closer look

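Among the members, 3 probes lay on opposite sides of control at the 2 doses and differed between the doses by more than the median SD between probes of a gene. Fos was at -0.18 at 10 µg/ml BP and 0.27 at 40 µg/ml BP, a log2 difference of 0.46. The 3′ probe of Fosl2 was at -0.27 and 0.28, a difference of 0.55. Jund was at -0.15 and 0.35, a difference of 0.50. At 10 µg/ml BP the ratios of Fos and Jund did not exceed the scanner error, so a level below control is not shown for them. The pattern was looked for in the genes named in the report only, and 3 named AP-1 targets also met it. Mmp9 differed by -2.25 between the doses, Mt2 by 2.23 and Il11 by 1.097. With 1 array per condition none of these differences was tested.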

How the results depend on the processing

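The count of member probes called at 10 µg/ml BP was 0, and became 3 at a 1.5-fold threshold, 1 with quantile normalization and 1 with the brightness median subtracted, where the 1 was Junb. At 40 µg/ml BP the count was 1, the coding probe of Fosl2. It became 2 at 1.5-fold, and 0 at 3-fold, with normexp, with quantile normalization, with the brightness median subtracted, with one probe per gene and with the median of a gene's probes. Between the doses it was 0, and 1 at 1.5-fold. Of all gene probes, 28.5%, 28.4% and 14.0% were called at 1.5-fold in these 3 comparisons. The medians of the members moved by less than the median SD between probes under every alternative run. Of 201 alternative values for single members, 9 moved by more than that SD, and no called value changed sign. The series table is counted among these alternatives and could only repeat the main values, because it holds the same intensities. Of the small ratios, Fosl1 between the doses ran from -0.03 to 0.08 and Egr1 at 40 µg/ml BP from -0.08 to 0.01. Quantile normalization moved the median of all probes by 0.22 at 10 µg/ml BP and 0.15 at 40 µg/ml BP, and normexp by 0.19 and 0.24. No paired analysis was possible because the labels give 1 array for every condition, and leaving out a replicate was not possible either. Dim probes such as the coding probe of Fosl2 limit what signal over background can show.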
